A study of Rattus norvegicus with 8 samples.

Results

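The antioxidant defence was followed through 7 rat genes, *Hmox1* (ENSRNOG00000014117), *Nqo1* (ENSRNOG00000012772), *Gclc* (ENSRNOG00000006302), *Gclm* (ENSRNOG00000013409), *Sod1* (ENSRNOG00000002115), *Sod2* (ENSRNOG00000019048) and *Cat* (ENSRNOG00000008364). They were chosen as a list of Ensembl identifiers, without a rule on measured values but with earlier results of these data known. All 7 of the 7 identifiers were present among the 9848 genes of the count table, and none was absent. The transcription factor NRF2 is held in the cytoplasm by KEAP1 until oxidants or electrophiles modify KEAP1. It then enters the nucleus, pairs with small MAF proteins and binds antioxidant response elements in front of genes that detoxify quinones, break down heme and make glutathione. *Hmox1*, *Nqo1*, *Gclc* and *Gclm* are textbook targets of this pathway, whereas *Sod1*, *Sod2* and *Cat* encode the enzymes that remove superoxide and hydrogen peroxide. Enteric glia surround the neurons of the gut wall and support them.

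RNA came from the rat enteric glial cell line EGC/PK060399egfr, bought from a culture collection, in 4 groups of 2 libraries each. THC-COOH + LPS cells received 10 nM THC-COOH, the carboxylated end metabolite of delta-9-tetrahydrocannabinol (THC), for 1 h before 1 µg/mL of *E. coli* lipopolysaccharide (LPS), the bacterial wall component that activates TLR4. THC + LPS cells received 0.1 µg/mL THC for 1 h before the same LPS, LPS cells received LPS alone, and Control cells were left untreated. The study dissolved the cannabinoids in ethanol and describes no ethanol for the LPS or Control cells. Solvent and cannabinoid therefore cannot be told apart where a pretreated group is compared with LPS or Control. The labels give 24 h of LPS, while the results text of the study gives a shorter exposure. The doses of THC and THC-COOH were not matched, no group received a cannabinoid without LPS, and nothing in the sources used here states that the 2 libraries of a group were grown as separate cultures. The p-values therefore measure only the spread between these samples, which may be technical. For each gene that spread was drawn largely toward the spread of all genes tested, so that it rests little on its own libraries. Fewer cells and less RNA per cell cannot be told apart in such bulk samples.

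Expression was read by bulk MARS-seq, in which only the 3′ end of each polyadenylated transcript is sequenced. The total counts of the libraries ran from 545779 in LPS library 2 to 1559935 in THC + LPS library 1. Levels are given in CPM, that is counts scaled by the TMM library size, and compare libraries for 1 gene but not genes with each other. A change was called when edgeR's quasi-likelihood test over 7875 genes gave a Benjamini-Hochberg adjusted p under 0.05 and the fold was above 1.6, the thresholds of the study's methods. With 2 libraries against 2, an exact permutation test cannot give a p below 0.333. The labelled glial identity was not checked against marker genes, since symbols of other identifiers were not paired in the tables used here, and the same holds for the remaining NRF2 pathway genes.

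Promoters of 6 of the 7 genes (250 bases before to 50 after a start site) were taken from RefSeq on the build GRCr8, matched by symbol. *Hmox1* was not in that table. They were searched on both strands for TGACNNNGC, the core of the antioxidant response element. Matches were found in the promoters of 2 of the 6 genes, *Gclm* and *Sod2*, and in 12.1% of all 33469 promoters of the table. The promoters of the partner subunits *Gclc* and *Gclm* are shown because the 2 subunits form 1 enzyme and only the *Gclm* window held the core, and the part around the *Sod2* match is shown for comparison. Capitals mark the match, which in both genes lies on the opposite strand, so that the letters shown are its reverse complement.
Gclm promoter (GRCr8, chr2:213031885-213032184, + strand): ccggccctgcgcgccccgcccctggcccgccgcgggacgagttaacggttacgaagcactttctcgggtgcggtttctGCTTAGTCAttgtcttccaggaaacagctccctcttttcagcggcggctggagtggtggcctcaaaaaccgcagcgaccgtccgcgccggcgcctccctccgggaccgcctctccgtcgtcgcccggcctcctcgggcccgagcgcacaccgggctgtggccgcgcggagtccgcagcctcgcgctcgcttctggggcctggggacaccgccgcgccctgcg
Gclc promoter (GRCr8, chr8:87510226-87510525, + strand): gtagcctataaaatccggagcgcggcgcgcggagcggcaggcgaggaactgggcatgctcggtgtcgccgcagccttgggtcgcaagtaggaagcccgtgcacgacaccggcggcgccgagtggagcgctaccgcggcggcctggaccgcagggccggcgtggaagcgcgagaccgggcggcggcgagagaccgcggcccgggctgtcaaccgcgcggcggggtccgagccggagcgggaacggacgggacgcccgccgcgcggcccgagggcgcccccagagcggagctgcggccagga
Sod2 promoter, part around the match (GRCr8, - strand): ggcgctgccgGCAGGGTCAgcgcctagct
The match began at position −172 from the start site in *Gclm* and at −35 in *Sod2*. A match is a description of these letters, and no match says only that the core was not in this window.

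Among the 7 genes, *Hmox1* was the 1 whose level was called different between groups. *Hmox1* encodes the inducible heme oxygenase, which breaks heme down to biliverdin, iron and carbon monoxide. It had 1270 and 1246 CPM in the THC-COOH + LPS libraries, 1059 and 789 CPM in THC + LPS, 969 and 1212 CPM in LPS, and 719 and 748 CPM in Control. Each of the 6 libraries that received LPS lay above either Control library, as in 4.69% of all genes. The THC-COOH + LPS pair lay above the other 6 libraries, for which the share over all genes was not counted. Raw counts were between 536 and 1653, and the 95% counting intervals of both THC-COOH + LPS libraries lay above those of both Control libraries. The interval of THC + LPS library 2 (725.6 to 856.5 CPM) overlapped that of Control library 2 (688.4 to 811.8 CPM). That of THC-COOH + LPS library 2 (1174 to 1320 CPM) overlapped that of LPS library 2 (1120 to 1308 CPM). Both orderings above therefore rest in part on differences within counting error.

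*Hmox1* rose with THC-COOH and LPS relative to Control, to 1258 ± 17.2 CPM in THC-COOH + LPS against 733.7 ± 20.6 CPM in Control (SD, n = 2 libraries each). The log2 fold change was 0.78 (95% interval 0.55 to 1.01), a 1.71-fold rise, with an adjusted p of 0.00101 from edgeR. In this comparison 0.0762% of all genes tested were called in either direction and 0.14% passed at any fold, and *Hmox1* had the third smallest p. The call held in 14 of 15 other fits, DESeq2 (adjusted p = 0.0281) and limma voom (adjusted p = 0.000543) among them. It was lost without THC-COOH + LPS library 2, where the log2 fold change was 0.79 and the adjusted p from edgeR was 0.0651.

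With LPS alone, *Hmox1* had 1090 ± 171 CPM, against 733.7 ± 20.6 CPM in Control (SD, n = 2 libraries each). The log2 fold change was 0.57 (95% interval 0.33 to 0.80), which is 1.48-fold. Its adjusted p was 0.0462 from edgeR, past the threshold, but the fold was under the minimum of 1.6, so that it was not called. Without a minimum fold, 0.102% of all genes passed in this comparison, and *Hmox1* was 1 of these 8 genes. The adjusted p was under 0.05 in 7 of 15 other fits. It was 1 with DESeq2, 0.0900 with limma voom and 0.687 from edgeR without LPS library 2. Without a Control library it was 0.277 (library 1) or 0.158 (library 2), and without a THC-COOH + LPS library 0.115 (library 1) or 0.112 (library 2), all from edgeR. Without LPS library 1 both thresholds were passed, with an adjusted p of 0.0169 from edgeR and a log2 value of 0.72.

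The 2 LPS libraries differed in *Hmox1* by more than counting error. Library 1 had 0.800 times the CPM of library 2, with a 95% counting interval of 0.722 to 0.887. THC + LPS libraries differed in the opposite order, with a ratio of 1.34 between library 1 and library 2 (95% counting interval 1.22 to 1.48). LPS library 2 had the lowest total of the series and THC + LPS library 1 the highest. The part of depth in these differences was not tested. In Control the ratio was 0.961 (0.853 to 1.08) and in THC-COOH + LPS it was 1.02 (0.941 to 1.10), so that both intervals included 1.

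With THC before LPS, *Hmox1* averaged 923.8 ± 191 CPM, against 1090 ± 171 CPM with LPS alone (SD, n = 2 libraries each). The libraries of the 2 groups overlapped. The log2 fold change was −0.22 (95% interval −0.45 to 0.01, adjusted p = 0.815 from edgeR), and the interval excluded a 1.6-fold change in either direction. That interval rests mostly on a spread borrowed from all genes, while the libraries of both groups differed in *Hmox1* beyond counting error. Relative to Control the log2 fold change was 0.34 (0.11 to 0.58, unadjusted p = 0.00562, adjusted p = 0.694 from edgeR). The value relative to Control was 0.11 without THC + LPS library 1 and 0.53 without library 2, so that it moved with single libraries of that group.

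THC-COOH before LPS gave a log2 fold change of *Hmox1* of 0.21 relative to LPS alone (95% interval −0.02 to 0.44, adjusted p = 0.752 from edgeR). Both THC-COOH + LPS libraries lay above both LPS libraries, which was the case for 18.3% of all genes in this comparison. The rise with THC-COOH and LPS over Control is therefore not shown to differ from the change with LPS alone. Across the 4 groups the means of *Hmox1* ran, from high to low, THC-COOH + LPS, LPS, THC + LPS and Control, and no 2 neighbours in that order differed after adjustment. The test of any difference among the 4 groups gave an adjusted p of 0.00305 from edgeR, where 0.47% of all genes passed, and DESeq2's likelihood ratio test gave 0.0800. *Hmox1*, *Nqo1* and *Gclc* had an unadjusted p under 0.05 in this joint test from edgeR, as did 8.04% of all genes.

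The 2 pretreatments were also set side by side, at their unmatched doses. *Hmox1* was 0.74-fold in THC + LPS relative to THC-COOH + LPS (log2 fold change −0.44, 95% interval −0.66 to −0.21). The unadjusted p was 0.000567 and the adjusted p was 0.0971 from edgeR, so that it was not called. The adjusted p was under 0.05 in 2 of 15 other fits, namely with every gene that had a count (0.0272) and with the replicate block (0.0386), and in neither was the fold above 1.6. Without THC + LPS library 2 the log2 fold change was −0.25.

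All 6 libraries that received LPS were compared with the 2 Control libraries, as the mean of the 3 LPS groups. For *Hmox1* the log2 fold change was 0.56 (95% interval 0.37 to 0.76, adjusted p = 0.00866 from edgeR), which is 1.48-fold and under the minimum fold. In all, 0.0762% of genes had an adjusted p under 0.05 here at any fold. Without Control library 1 the adjusted p was 0.236 and without Control library 2 it was 0.0644, both from edgeR, and DESeq2 gave 0.217. The exact two-sided permutation test of these 6 against 2 libraries gave p = 0.0714, the smallest value it can give. That value is reached whenever all 6 lie on the same side of both Control libraries, as in 4.69% (above) and 4.04% (below) of all genes. *Gclc* reached it too, so that this test adds nothing to the order of the libraries. By the thresholds on both p and fold, 0 of the 7 genes were called here with edgeR, DESeq2 or limma voom, against 0.0635% of all genes with edgeR, and 3 had an unadjusted p under 0.05, against 6.65%. Of the 7, 5 had a value above 0, beside 49% of all genes, and in 0 of them did all 6 libraries lie below both Control libraries, beside 4.04% of all genes.

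**Figure D1:**
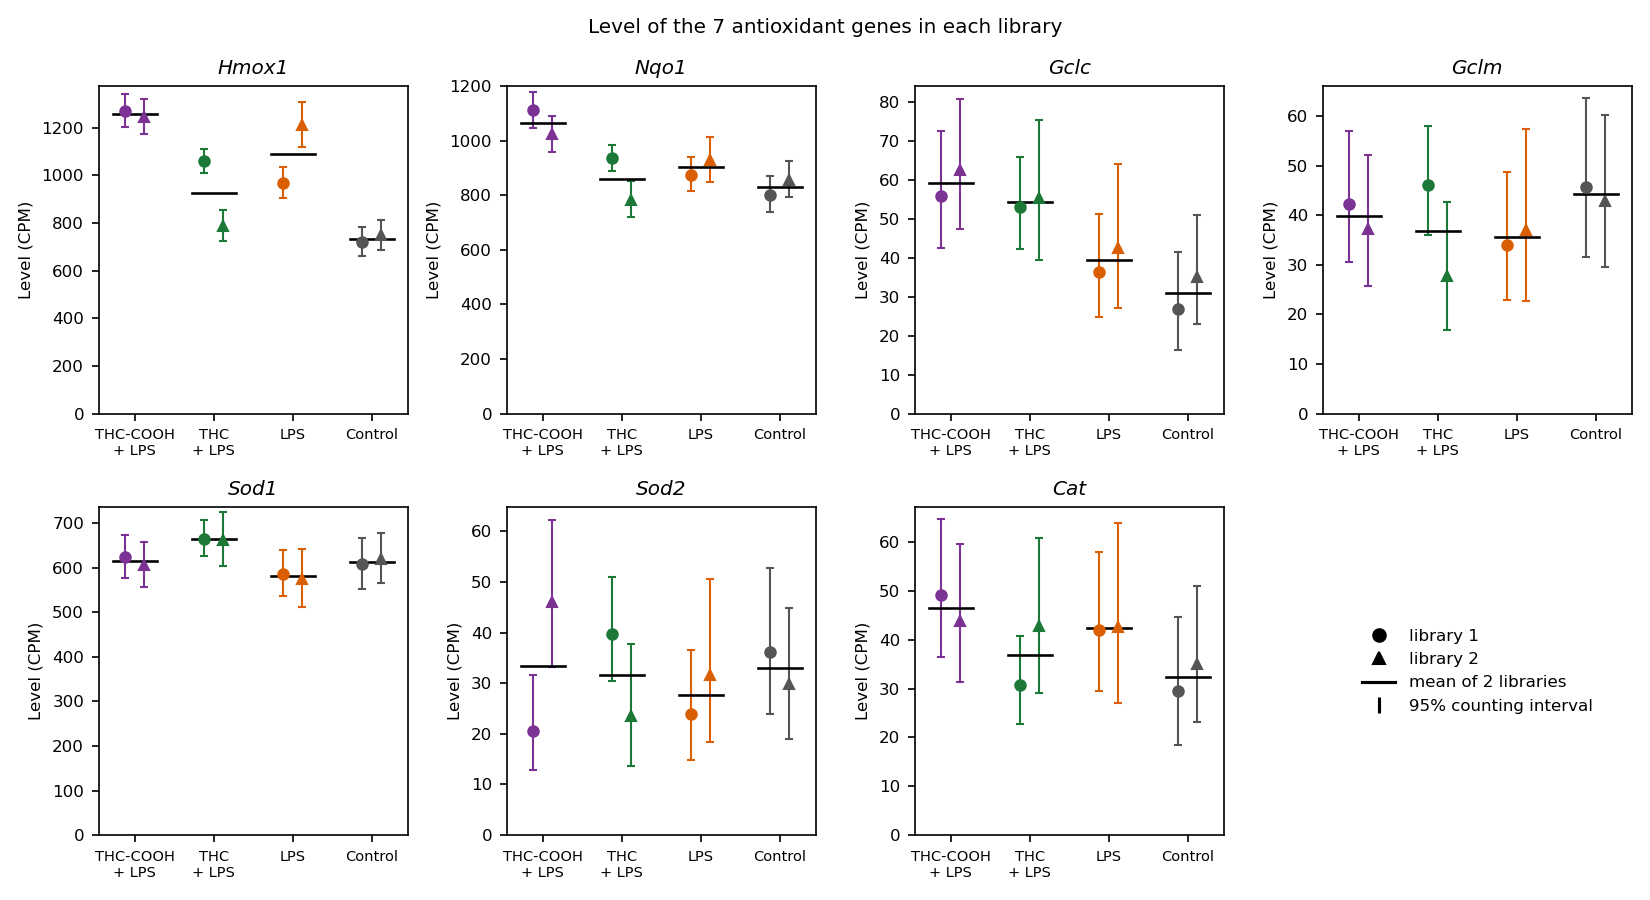
Level of each of the 7 genes (CPM, linear axis from 0) in every library, by group, with circles for library 1, triangles for library 2, bars for the 95% counting interval of a library and black lines for the mean of 2 libraries. Hmox1 lies at 1270 and 1246 CPM in THC-COOH + LPS and at 719 and 748 CPM in Control, and Gclc is lowest in Control. The 2 libraries lie far apart for Gclm in THC + LPS and for Sod2 in both pretreated groups.

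*Nqo1* encodes the NAD(P)H quinone reductase, which turns quinones into hydroquinones in a single step and is widely read as an index of NRF2 activity. It had 1112 and 1023 CPM in THC-COOH + LPS, 937 and 783.5 CPM in THC + LPS, 875 and 929.5 CPM in LPS, and 802 and 857 CPM in Control. The THC-COOH + LPS libraries were the highest of the 8. Over all genes, they lay above both LPS libraries in 18.3% and above both Control libraries in 19.3%. The other 3 groups of *Nqo1* lay close together, with THC + LPS library 2 the lowest of all. Its log2 fold change was 0.36 in THC-COOH + LPS relative to Control (95% interval 0.17 to 0.56, unadjusted p = 0.00072, adjusted p = 0.167 from edgeR). Relative to LPS alone, THC-COOH + LPS gave 0.24 (0.05 to 0.44, adjusted p = 0.616 from edgeR). LPS alone gave 0.12 relative to Control (−0.08 to 0.32, adjusted p = 0.877 from edgeR), and THC + LPS gave −0.06 relative to LPS (−0.25 to 0.13, adjusted p = 0.956 from edgeR). None of these passed, and the intervals of *Nqo1* excluded a 1.6-fold change both ways in 6 of the 6 pairwise comparisons of the groups. Set against THC-COOH + LPS, THC + LPS gave −0.31 (−0.50 to −0.11, adjusted p = 0.211 from edgeR).

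Glutamate-cysteine ligase joins glutamate and cysteine, the first step in making glutathione. Its catalytic subunit is encoded by *Gclc* and its modifier subunit by *Gclm*. *Gclc* had 56.0 and 62.5 CPM in THC-COOH + LPS, 53.2 and 55.4 CPM in THC + LPS, 36.4 and 42.7 CPM in LPS, and 26.8 and 35.1 CPM in Control. Both pretreated groups thus lay above the LPS libraries, as in 7.52% of all genes, and these above the Control libraries, as in 17.9%. LPS library 1 and Control library 2 were close, at 36.4 and 35.1 CPM. The raw counts were low, with 57 and 57 in THC-COOH + LPS, 83 and 40 in THC + LPS, 32 and 23 in LPS, and 20 and 27 in Control. In Control library 1, 20 counts left a 95% counting interval of 16.4 to 41.4 CPM. The interval of Control library 2, 23.1 to 51.0 CPM, overlapped those of all 6 LPS-treated libraries.

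No change of *Gclc* passed. Relative to Control, the log2 fold change was 0.93 in THC-COOH + LPS (95% interval 0.41 to 1.45, unadjusted p = 0.00117, adjusted p = 0.184 from edgeR). It was 0.80 in THC + LPS (0.28 to 1.32, unadjusted p = 0.00416, adjusted p = 0.616 from edgeR) and 0.33 in LPS (−0.26 to 0.92, adjusted p = 0.886 from edgeR). Relative to LPS alone it was 0.60 in THC-COOH + LPS (0.09 to 1.11, adjusted p = 0.683 from edgeR) and 0.47 in THC + LPS (−0.04 to 0.98, adjusted p = 0.816 from edgeR). These values put *Gclc* above *Hmox1* in fold relative to Control in both pretreated groups, but with standard errors of 0.25 against 0.11 on the log2 scale. For the mean of both pretreated groups relative to LPS alone the value was 0.54 (0.08 to 0.99, unadjusted p = 0.0225, adjusted p = 0.846 from edgeR). *Gclc* was the 1 of the 7 genes with an unadjusted p under 0.05 in that comparison, against 5.6% of all genes, and 0.0127% of all genes passed after adjustment at any fold. *Gclc* and *Sod1* had all 4 pretreated libraries above both LPS libraries there, against 7.52% of all genes, 0 of the 7 had them below, against 7.28%, and 5 of the 7 values were above 0, beside 48.9%. *Gclc* was 1 of the genes whose 6 LPS-treated libraries all lay above the 2 Control libraries, as was *Hmox1*, against 4.69% of all genes.

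*Gclm*, the partner subunit, had 42.3 and 37.3 CPM in THC-COOH + LPS, 46.1 and 27.7 CPM in THC + LPS, 34.1 and 37.1 CPM in LPS, and 45.6 and 42.9 CPM in Control. Control libraries were above those of LPS and of THC-COOH + LPS, and the 2 libraries of THC + LPS held the highest and the lowest value of the series. Control library 2 and THC-COOH + LPS library 1 were close, at 42.9 and 42.3 CPM, with overlapping counting intervals. The log2 fold changes relative to Control were −0.15 in THC-COOH + LPS, −0.17 in THC + LPS and −0.32 in LPS, with adjusted p-values from edgeR of 0.923, 0.975 and 0.893. Raw counts were between 20 and 72, and the 95% interval for LPS relative to Control, −0.93 to 0.29, left room for a 1.6-fold fall but not for a 1.6-fold rise. The difference between the changes of *Gclc* and *Gclm* was not tested.

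Superoxide is converted to hydrogen peroxide by the copper-zinc dismutase of the cytosol, encoded by *Sod1*, and by the manganese dismutase of mitochondria, encoded by *Sod2*, a known target of NF-κB. *Sod1* had 624 and 606 CPM in THC-COOH + LPS, 666 and 663 CPM in THC + LPS, 586 and 575 CPM in LPS, and 608 and 619.6 CPM in Control. It was the steadiest of the 7 genes, with the highest library 1.16 times the lowest. THC + LPS libraries were the highest and LPS libraries the lowest. That difference, a log2 fold change of 0.19 for THC + LPS relative to LPS (95% interval 0.00 to 0.39, unadjusted p = 0.0499), had an adjusted p of 0.811 from edgeR and did not pass. For *Sod1* the intervals excluded a 1.6-fold change both ways in 6 of the 6 pairwise comparisons.

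*Sod2* had 20.6 and 46.1 CPM in THC-COOH + LPS, 39.7 and 23.5 CPM in THC + LPS, 23.9 and 31.5 CPM in LPS, and 36.2 and 29.9 CPM in Control. Its groups overlapped in every pairwise comparison. The 2 THC-COOH + LPS libraries held the lowest and the highest value of the series, with a ratio of 0.448 between library 1 and library 2 (95% counting interval 0.252 to 0.774). The log2 fold change was −0.29 in LPS relative to Control (95% interval −1.09 to 0.51, adjusted p = 0.926 from edgeR). It was 0.28 in THC-COOH + LPS relative to LPS (−0.49 to 1.06) and 0.32 in THC + LPS relative to LPS (−0.44 to 1.07). With 17 to 62 raw counts in a library, no pairwise interval of *Sod2* excluded a 1.6-fold change in both directions.

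*Cat* encodes catalase, the peroxisomal enzyme that splits hydrogen peroxide. It had 49.1 and 43.9 CPM in THC-COOH + LPS, 30.7 and 42.9 CPM in THC + LPS, 42.0 and 42.7 CPM in LPS, and 29.5 and 35.1 CPM in Control. THC-COOH + LPS and LPS libraries lay above those of Control, while the THC + LPS libraries overlapped with Control. The log2 fold change relative to Control was 0.53 in THC-COOH + LPS (95% interval −0.04 to 1.09, adjusted p = 0.619 from edgeR) and 0.39 in LPS (−0.21 to 0.99, adjusted p = 0.860 from edgeR). Relative to LPS it was −0.26 in THC + LPS (−0.82 to 0.30, adjusted p = 0.931 from edgeR).

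**Figure D2:**
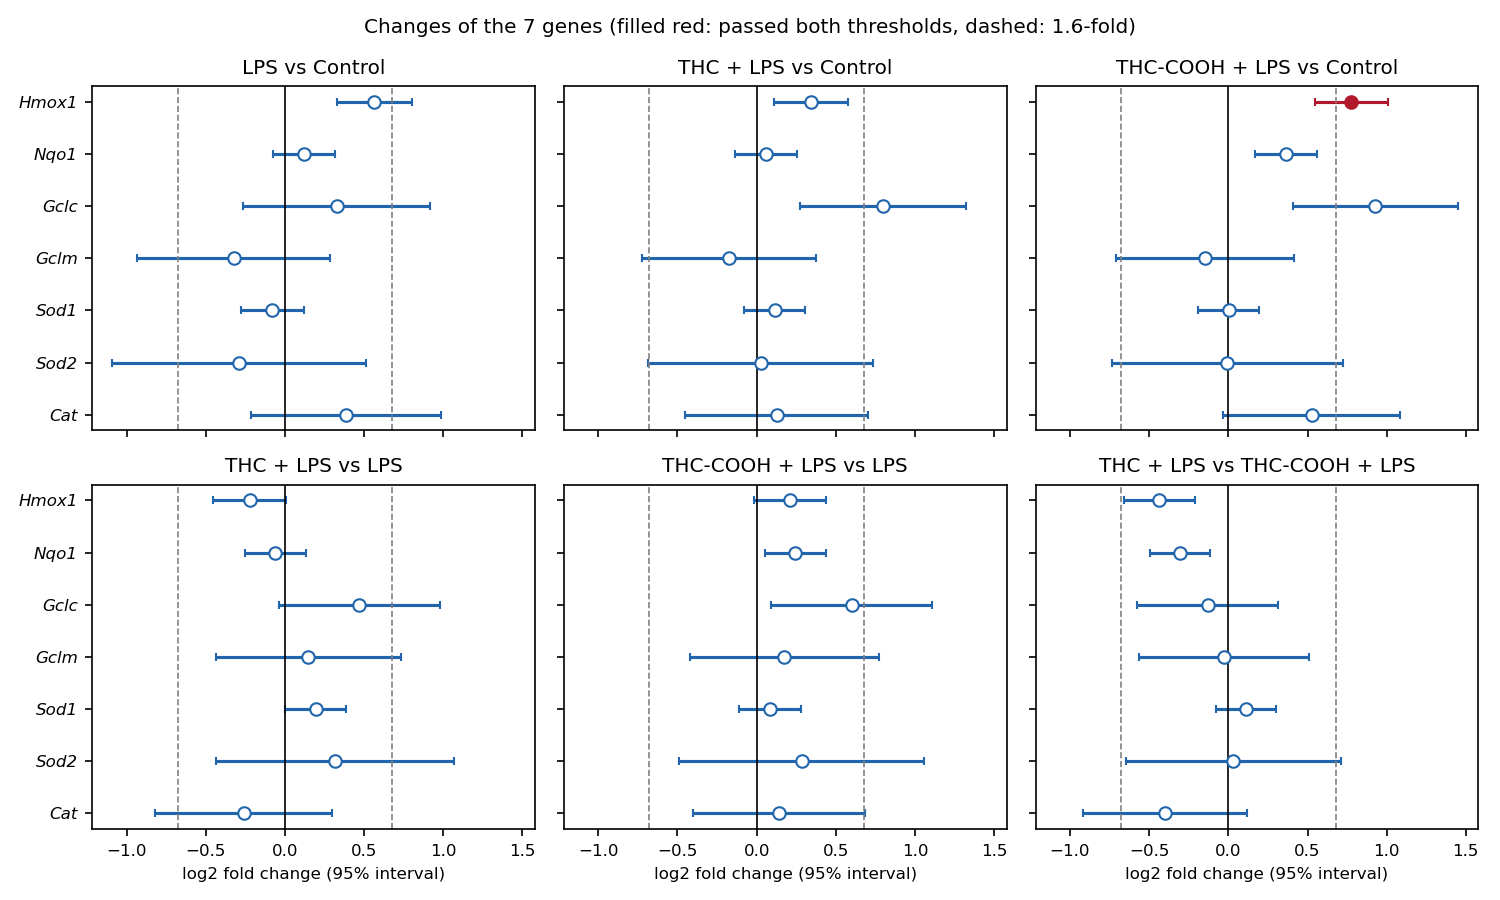
Log2 fold change of each gene in the 6 pairwise comparisons of the groups, with 95% intervals from edgeR. The dashed lines mark a 1.6-fold change and the filled red point the single call, Hmox1 at 0.78 in THC-COOH + LPS relative to Control, while the intervals of Nqo1 and Sod1 stay within the dashed lines in all 6 panels.

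For LPS relative to Control, 0 of the 7 were called against 0.0381% of all genes, and 1 had an unadjusted p under 0.05 from edgeR, as did 7.16% of all genes. In *Hmox1*, *Nqo1*, *Gclc* and *Cat* both LPS libraries lay above both Control libraries and in *Gclm* and *Sod1* below them, as in 17.9% (above) and 18% (below) of all genes. DESeq2 and limma voom also called 0 of the 7 there. For THC + LPS relative to LPS, 0 of the 7 were called against 0.0254% of all genes, with 1 at an unadjusted p under 0.05 against 6.16% of all genes. For THC-COOH + LPS relative to LPS, 0 of the 7 were called, as were 0% of all genes, with 2 at an unadjusted p under 0.05 against 6.7% of all genes, and DESeq2 and limma voom also called 0 of the 7 in both comparisons with LPS. For THC + LPS relative to Control 0 of the 7 were called against 0.0508%, and for THC + LPS relative to THC-COOH + LPS 0 of the 7 against 0.229%, each with 2 at an unadjusted p under 0.05, against 5.33% and 8.81% of all genes. DESeq2 and limma voom called 0 of the 7 in these 2 comparisons as well. For THC-COOH + LPS relative to Control, 1 of the 7 was called against 0.0762% of all genes, and 3 had an unadjusted p under 0.05 against 8.43% of all genes. In that comparison *Hmox1*, *Nqo1*, *Gclc* and *Cat* lay apart and higher, as did 19.3% of all genes. *Gclm* lay apart and lower, as did 18.9%, with its nearest libraries at 42.3 and 42.9 CPM. In THC + LPS relative to Control, *Hmox1*, *Gclc* and *Sod1* lay apart and higher, against 17% of all genes, and 0 of the 7 lower, against 17.7%. In THC + LPS relative to THC-COOH + LPS, *Sod1* lay apart and higher, against 19.9% of all genes, and *Hmox1*, *Nqo1*, *Gclc* and *Cat* lower, against 19.6%. The 6 comparisons share libraries, so that their values are not independent of each other.

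The median log2 fold change of the 7 genes was 0.12 for LPS relative to Control, where the median of all genes tested was −0.01. It was 0.36 for THC-COOH + LPS relative to Control and 0.12 for THC + LPS relative to Control, beside medians of all genes of 0.01 and 0.00. In THC-COOH + LPS relative to LPS all 7 values were above 0, with a median of 0.21, and 49.9% of all genes were above 0. In 6 of the 7 (all but *Sod2*) both THC-COOH + LPS libraries lay above both LPS libraries, which 18.3% of all genes did. In THC + LPS relative to LPS, 4 of the 7 values were above 0 (median 0.15), again with 49.9% of all genes above 0, and *Gclc* and *Sod1* were the 2 members whose libraries lay apart and higher, against 17.9% of all genes. In these 2 comparisons with LPS alone 0 of the 7 lay apart and lower, against 18.7% of all genes with THC and 18% with THC-COOH. Relative to Control, 4 of the 7 values were above 0 with LPS and 6 with THC + LPS, beside 49.3% of all genes in each case, and 5 with THC-COOH + LPS, beside 50.7%. Members of 1 pathway are not replicates of a condition, and these counts describe the same 8 libraries.

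Over the 7 genes and 4 groups, the 2 libraries of a group differed beyond counting error in 5 of 28 pairs (17.9%). Among all genes tested, the binomial p was under 0.05 in 8.73% of pairs in LPS to 10.6% in THC-COOH + LPS, and among those with a sum of at least 100 counts in the pair, in 11.9% to 13.6% of pairs in the same groups. The 5 pairs were *Hmox1* in LPS, *Sod2* in THC-COOH + LPS, and *Hmox1*, *Nqo1* and *Gclm* in THC + LPS. In these 3 genes THC + LPS library 1 was the higher, by ratios of 1.34 for *Hmox1*, 1.20 for *Nqo1* and 1.67 for *Gclm*. The intervals of the other 4 genes included 1 in THC + LPS, with ratios of 1.69 for *Sod2* (0.974 to 3.08), 0.716 for *Cat* (0.447 to 1.16), 0.960 for *Gclc* and 1.00 for *Sod1*. The intervals cover counting error only, and how molecular identifiers were handled is not given in the sources used here.

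**Figure D3:**
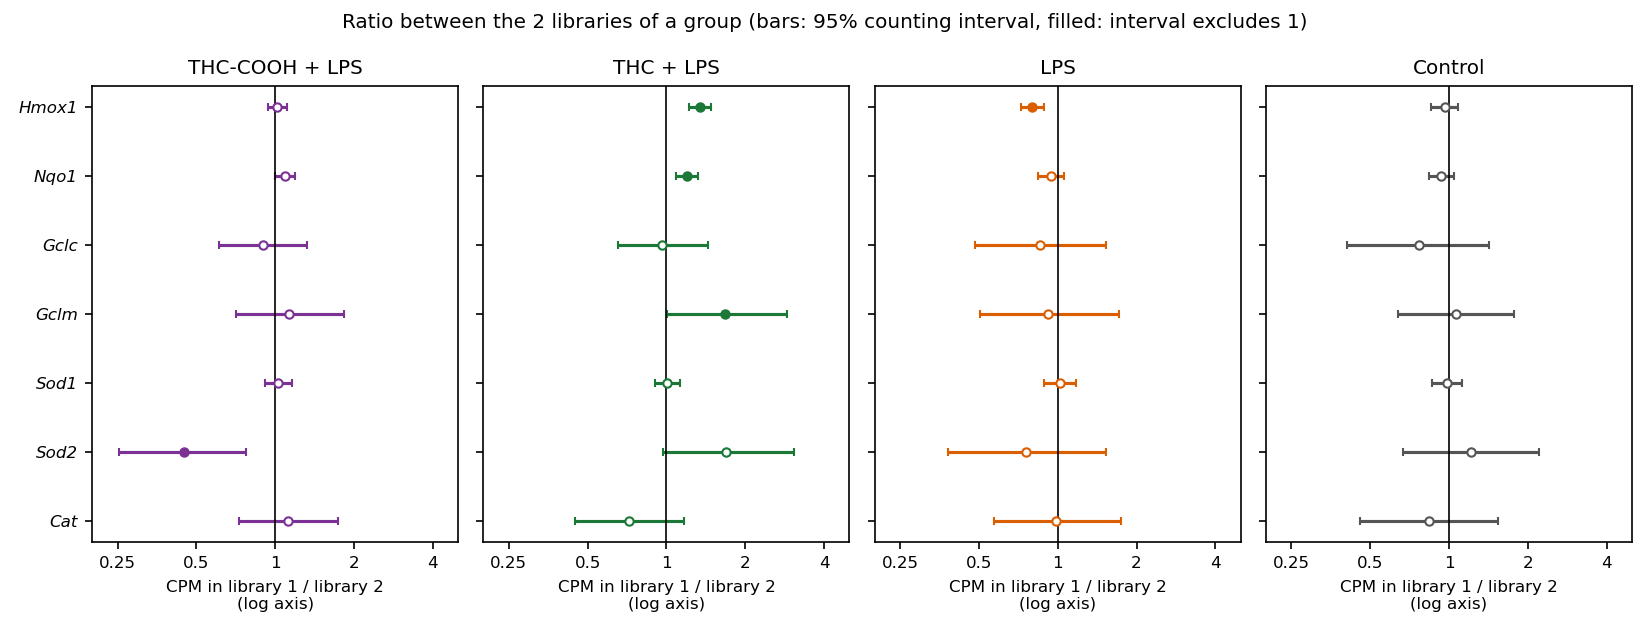
Ratio of the CPM in library 1 to that in library 2 for each gene and group, on a log axis, with 95% counting intervals and filled points where the interval excludes 1. In THC + LPS the filled points are Hmox1 at 1.34, Nqo1 at 1.20 and Gclm at 1.67, and in LPS the filled point is Hmox1 at 0.800.

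In their profile over the 8 libraries, the member most like *Hmox1* was *Nqo1*, with a root mean square difference of 0.191 in centred log2 CPM. The difference from a flat profile was 0.318 for *Hmox1* and 0.160 for *Nqo1*. Since 0.191 was above the value for *Nqo1*, no likeness is read for this pair. *Gclc* was most like *Hmox1* (0.290, against 0.375 from a flat profile). For *Nqo1*, *Gclm* and *Sod1* the nearest member was no nearer than a flat profile, at 0.183 against 0.160, 0.226 against 0.219 and 0.183 against 0.0705, so that no likeness is read for them. For *Cat* (0.203 to *Nqo1*, against 0.234) and *Sod2* (0.329 to *Gclm*, against 0.352) the nearest member was little nearer than a flat profile. Both distances were above the value of that nearest member from a flat profile (0.160 for *Nqo1* and 0.219 for *Gclm*), so that no likeness is read there either. The low counts of *Gclc*, *Gclm*, *Sod2* and *Cat* add to every distance that involves them.

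**Figure D4:**
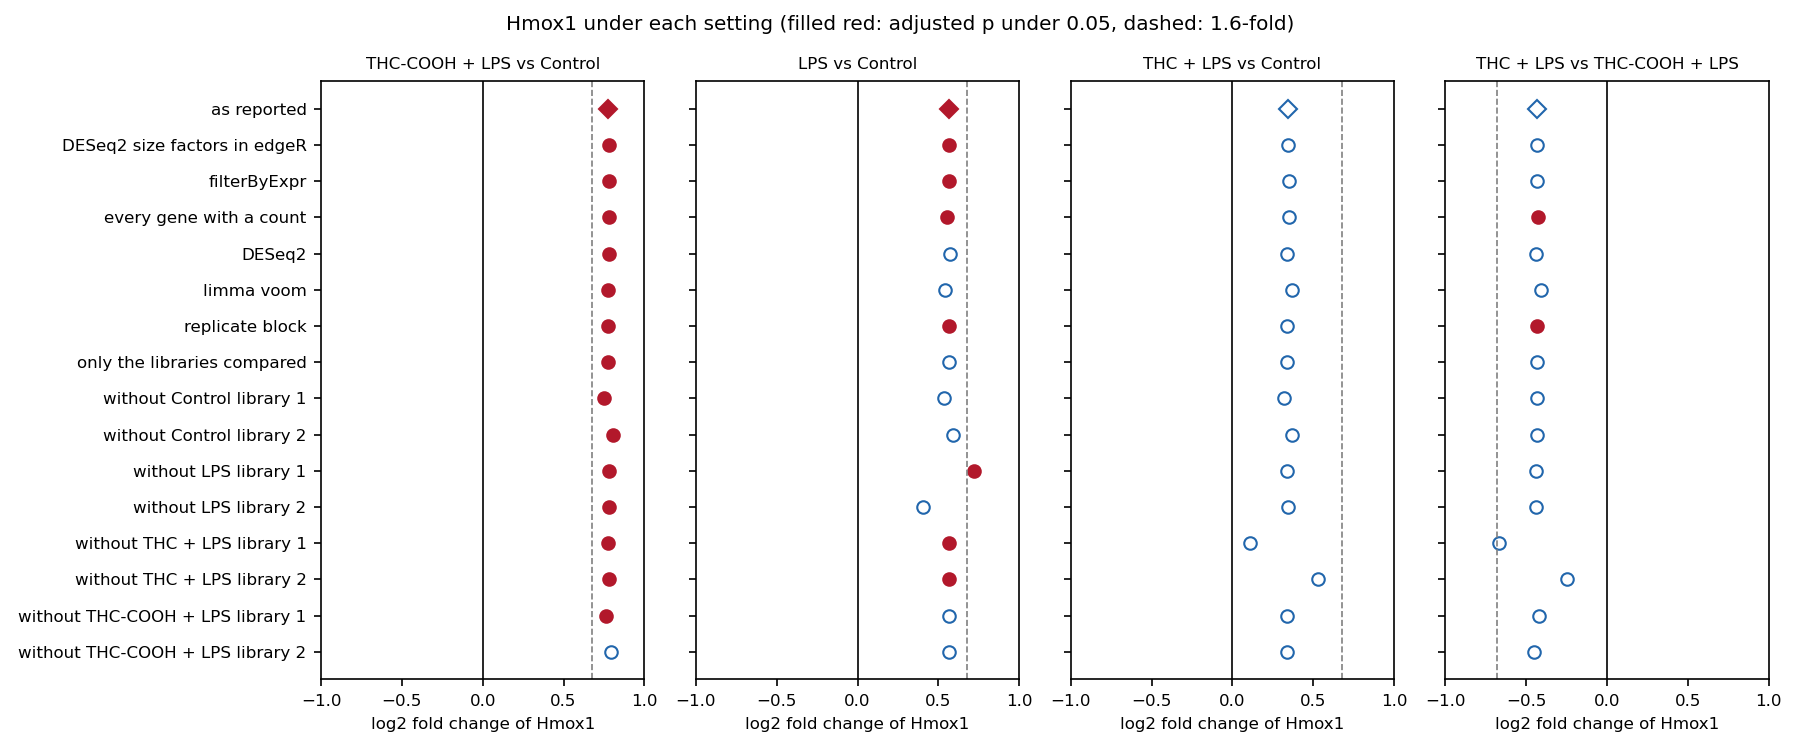
Log2 fold change of Hmox1 as reported (diamonds) and under 15 other settings (circles) in 4 comparisons, filled red where the adjusted p was under 0.05, with the 1.6-fold change dashed. THC-COOH + LPS relative to Control stays between 0.75 and 0.80, whereas the values with LPS and with THC + LPS move with single libraries of those groups.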

How the data were processed

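Polyadenylated RNA of the rat line was profiled in 8 libraries. According to the submitters' processing notes, reads were demultiplexed (bcl2fastq, version 2.20.0.422), trimmed with cutadapt, aligned to Rnor_6.0 by STAR (version 2.7.3a), and assigned to genes by HTSeq. The authors deposited whole-number counts for each Ensembl gene, which were used here. A second deposited table holds a signal, equal to these counts over DESeq2 size factors up to 0.005, and served only as a check. Genes whose count exceeded 10 somewhere were tested (7875 of 9848). One fit with edgeR 4.0.16 (R 4.3.3; TMM, quasi-likelihood, a coefficient per group) covered all libraries, and p-values were adjusted by Benjamini-Hochberg over all genes tested. Standard errors were derived from the F statistic, and 95% intervals of fold changes use 23.7 degrees of freedom. Of these, 4 are residual and 19.7 come from the prior, which draws the spread of a gene toward that of all genes. Counting intervals are exact (Clopper-Pearson), and pairs of libraries were compared with the exact binomial test.

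Besides the 6 pairwise comparisons, the mean of the 3 LPS groups was set against Control, the mean of both pretreated groups against LPS, and any difference among the 4 groups was tested jointly. Alternatives were DESeq2 1.42.0, limma voom (limma 3.58.1), other size factors, other filters on low counts, only the libraries compared, a replicate block, no minimum fold, and omission of single libraries. A lone library left in a group was assumed to vary like the others. The procedure was run on simulated counts, drawn with the fitted spread and independent libraries, and its outcome is not reported here. Such counts cannot check libraries that were not separate cultures, or a gene whose spread exceeds the fitted one. The 7 genes and the lists were chosen with earlier results of these data known. The rule for named genes took all 7 and the most alike gene of each, plus lists of further NRF2 and antioxidant genes and cell type markers wherever a symbol could be paired with an identifier. The RefSeq gene table used here carries no Ensembl identifiers for rat, so those lists were not run, and the symbols of the 7 are those supplied with their identifiers. Matplotlib 3.10.9 (Python 3.11.15) drew the figures.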

Additional observations from a re-analysis of the deposited data

How the results depend on the processing

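Of 889 alternative values for the 7 genes, 853 kept direction and side of the threshold. The call of Hmox1 in THC-COOH + LPS relative to Control was lost only without THC-COOH + LPS library 2, so that the genes called among the 7 were 0 to 1 over the single omissions, as they were for LPS relative to Control. With no minimum fold, 1 of the 7 passed for LPS relative to Control and 1 for the mean of the 3 LPS groups relative to Control. With DESeq2, 0 of the 7 passed the test of any difference. The cause was not tested in these cases. Low counts of Gclc, Gclm, Sod2 and Cat limit what could be detected.

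Signs turned only in values of size 0.316 or less on the log2 scale. With DESeq2, Sod2 was −0.0239 in THC + LPS relative to Control, −0.03058 in THC + LPS relative to THC-COOH + LPS and 0.006684 in THC-COOH + LPS relative to Control. With only the libraries compared, Sod1 was −0.0006014 in THC-COOH + LPS relative to Control. For the mean of both pretreated groups relative to LPS, Hmox1 was 0.0145 with every gene that had a count and 0.03313 with limma voom. Over the omission of single libraries, the log2 fold changes in THC + LPS relative to Control ran from −0.0722 to 0.41 for Cat, −0.67 to 0.0602 for Gclm, −0.0804 to 0.18 for Nqo1 and −0.48 to 0.27 for Sod2. In THC + LPS relative to LPS they ran from −0.46 to 0.02295 for Cat, −0.35 to 0.38 for Gclm, −0.20 to 0.0546 for Nqo1 and −0.19 to 0.55 for Sod2. In THC + LPS relative to THC-COOH + LPS they ran from −0.52 to 0.21 for Gclm and −0.47 to 0.70 for Sod2. In THC-COOH + LPS they ran from −0.0174 to 0.0244 for Sod1 and −0.67 to 0.48 for Sod2 relative to Control, and from −0.38 to 0.77 for Sod2 relative to LPS. For the mean of both pretreated groups relative to LPS they ran from −0.16 to 0.0793 for Cat, −0.0886 to 0.28 for Gclm, −0.16 to 0.15 for Hmox1 and −0.035 to 0.54 for Sod2, and for the mean of the 3 LPS groups relative to Control from −0.31 to 0.0720 for Sod2.

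Over all genes, the reported counts of genes called were 3 (LPS relative to Control), 2 (THC + LPS relative to LPS), 0 (THC-COOH + LPS relative to LPS), 18 (THC + LPS relative to THC-COOH + LPS), 4 (THC + LPS relative to Control), 6 (THC-COOH + LPS relative to Control), 5 (mean of the 3 LPS groups relative to Control), 0 (mean of both pretreated groups relative to LPS) and 37 (any difference). In the same order they were 11, 16, 9, 30, 14, 14, 8, 6 and 69 when each gene with any count was tested. DESeq2 moved them to 1, 4, 1, 3, 1 and 11 for LPS relative to Control, THC + LPS relative to THC-COOH + LPS, both other comparisons with Control, the mean of the 3 LPS groups and any difference. Limma voom gave 1 for LPS relative to Control, 1 for THC + LPS relative to LPS, 3 for THC-COOH + LPS relative to Control, 2 for the mean of the 3 LPS groups and 1 for the mean of both pretreated groups. Without a minimum fold they were 8 for LPS relative to Control, 29 for THC + LPS relative to THC-COOH + LPS, 11 for THC-COOH + LPS relative to Control and 1 for the mean of both pretreated groups. With only the libraries compared they were 4 for THC + LPS relative to LPS, 15 and 2 for THC + LPS and THC-COOH + LPS relative to Control, and 4 for the mean of both pretreated groups. With the filterByExpr filter the mean of the 3 LPS groups gave 2. The omission of single libraries gave 2 to 10, 1 to 10, 0 to 9, 1 to 27, 0 to 8, 1 to 7, 2 to 10, 0 to 5 and 10 to 43 in the order above.

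No pairing of the libraries by replicate number was seen across the genes compared. Differences between library 1 and library 2 correlated between −0.0858 and 0.103 over the 6 pairs of groups (3131 genes). A pairing in fewer genes was not tested. A fit with the replicate block gave 8, 18, 8, 30, 15, 13, 8, 7 and 64 genes called in the same order, each above the reported count. With the block, Hmox1 was 0.78 in THC-COOH + LPS relative to Control (adjusted p = 3.74e-05 from edgeR), and its adjusted p was 0.00738 for LPS relative to Control.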
